A study of Mus musculus with 12 samples.

Results

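The p53 pathway and its targets are described here through 32 mouse genes, taken by name from a list of the pathway: the Trp53 gene itself, its regulators and feedback genes, and the targets through which p53 acts on the cell cycle, cell death, DNA repair and metabolism. All 32 were found among the 24411 gene symbols of the deposited tables, and all 32 passed the filter on low values. By role, 6 belong to the core and its feedback, 5 to cell-cycle arrest, 12 to apoptosis, 4 to repair and 5 to metabolism and other functions.

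The study measured RNA of fetal mouse gonads by sequencing, in 12 libraries that fall into 5 groups. Every sample is of the genotype Nr5a1-hCD271, in which a cell-surface tag is placed under the Nr5a1 gene, and RNA was taken from the NR5A1(+) cells, those in which that gene is in use. The labels give no strain. Gonads of E10.8 embryos (E stands for embryonic day), with the aorta, mesonephros and mesenchyme still attached, were kept in culture for 19.2 h in DMEM and 10% horse serum, as control XY (n = 3), as control XX (n = 2), or as XY with 150 µM Dfo (deferoxamine, a compound that binds iron; n = 3). The last groups are XY (n = 2) and XX (n = 2) at E11.5. The sample titles of these E11.5 groups carry the letters WT, which the titles of the cultured groups do not. The labels carry the culture protocol for the E11.5 groups too, which does not settle how those were collected. Whether replicates are separate embryos is not stated, and p-values then measure only the spread among these libraries, which may be technical. In bulk RNA, fewer cells of a type and less RNA per cell cannot be told apart.

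The p53 protein is a transcription factor that is made continuously and destroyed as fast in unstressed cells, because MDM2, itself a p53 target, marks it for degradation. DNA damage, low oxygen and other stresses stabilise the protein, and it then binds DNA elements of paired decamers near genes that stop the cell cycle, repair DNA or start apoptosis. The level of Trp53 mRNA is therefore a poor reading of the activity of the protein, and the targets are usually read in its place. Iron chelators are known to stabilise p53 in cultured cells, and low iron also stabilises hypoxia-inducible factors, which share some targets with p53.

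The promoters of the targets are shown first, because p53 acts by binding DNA near its targets. RefSeq windows on GRCm38.p6 (the build of mm10) were found for 24 of the 32 genes, 33 windows in all. The 250 bases before each start site were searched for the p53 half-site consensus, the decamer RRRCWWGYYY, matched in full. In it R is A or G, W is A or T, and Y is C or T. The consensus reads the same on both strands, so 1 search covers both. The Cdkn1a, Ccng1 and Rps27l windows held a pair of half-sites. A pair had to keep the C and G of both decamers, at a spacing of at most 13 bases. At most 1 of its 20 bases could be a mismatch. The Rps27l pair lay before the second of its start sites, inside the gene. The windows of Mdm2, Gadd45a and Bax held single half-sites. Windows of Cdkn1a and Ccng1 are printed for the pairs, and those of Mdm2 and Bax as a gene that was higher with Dfo and one that was not called, each with a single half-site. Capitals mark the matched half-sites and, in the pairs, also a decamer that departs from the consensus by the 1 mismatch allowed. Each sequence runs 5′ to 3′ on the strand of its gene, and the last base lies just before the start site.
Cdkn1a, chr17:29090729-29090978 (plus strand): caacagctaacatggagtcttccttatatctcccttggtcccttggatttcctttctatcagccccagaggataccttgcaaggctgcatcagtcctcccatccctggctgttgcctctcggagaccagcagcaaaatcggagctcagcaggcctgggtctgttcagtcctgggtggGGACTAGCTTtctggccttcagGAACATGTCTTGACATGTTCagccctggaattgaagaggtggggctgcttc
Ccng1, chr11:40755287-40755536 (minus strand): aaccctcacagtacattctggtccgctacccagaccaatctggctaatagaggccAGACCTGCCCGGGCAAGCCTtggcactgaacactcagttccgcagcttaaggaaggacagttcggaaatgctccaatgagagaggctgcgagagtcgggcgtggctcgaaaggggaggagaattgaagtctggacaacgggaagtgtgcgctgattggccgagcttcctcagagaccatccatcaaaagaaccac
Mdm2, chr10:117710759-117711008 (minus strand): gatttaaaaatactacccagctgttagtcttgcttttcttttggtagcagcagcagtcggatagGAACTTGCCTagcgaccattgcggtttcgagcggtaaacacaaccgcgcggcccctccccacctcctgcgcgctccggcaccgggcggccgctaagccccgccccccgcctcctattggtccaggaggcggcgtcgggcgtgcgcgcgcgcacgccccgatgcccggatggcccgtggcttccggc
Bax, chr7:45466899-45467148 (minus strand): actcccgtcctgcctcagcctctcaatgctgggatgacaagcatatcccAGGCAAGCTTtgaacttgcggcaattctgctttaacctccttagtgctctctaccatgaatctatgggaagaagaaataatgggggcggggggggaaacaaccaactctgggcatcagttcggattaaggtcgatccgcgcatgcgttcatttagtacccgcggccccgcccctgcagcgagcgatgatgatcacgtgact

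A half-site stood in 11 of the 33 windows (33.3%), against 7.13% of all 32851 windows of the same length. A pair stood in 3 of the 33 (9.09%), against 0.505% of all windows. The other genes with a half-site were Aen, Ei24, Sesn1, Trp53 and Polk. A match describes letters in the window and is not a binding site, and no match says only that these letters were not there. Of the 11 genes with a half-site, 5 were called higher with Dfo in the comparison described below, and of the 13 with a window but no half-site, 8 were, against 4.98% of all genes tested. Trp53inp1, Pmaip1, Tnfrsf10b, Perp, Rrm2b, Ddb2, Xpc and Zmat3 had no window.

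Values are TPM, transcript abundances that scale each library to the same total and compare genes per length. They keep no record of depth, so the depth of the libraries is unknown and no counting interval was computed. Between 14578 and 18931 symbols were above 0 in a library. The nuclear RNA Rpph1 took 15.29% to 20.32% of the TPM in control XY, 19.49% to 23.59% in Dfo XY, 6.96% to 7.2% in control XX and 8.57% to 12.18% at E11.5. Replicates 1 and 2 of the cultured XY groups were closer to each other than to replicate 3 (median absolute log2 difference of 0.08 in control and 0.095 in Dfo, against 0.186 to 0.201). Xist, an RNA of XX cells, stood at 13.57 and 24.56 TPM in Dfo XY replicates 1 and 2, against at most 0.9 TPM in the other XY libraries and 124.31 to 174.81 TPM in the XX libraries. Results with Dfo are also given without them and with replicates 1 and 2 averaged. The 9 marker genes of gonadal somatic cells, led by Nr5a1, were above 0 in every group, and their summed level was 894.8 to 1072.4 TPM in control XY and 686.1 to 768.3 TPM in Dfo XY.

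The first comparison, Dfo XY against control XY, asks what the iron chelator does to cultured XY gonads. The arrest genes Cdkn1a, Btg2, Gadd45a and Plk2, the death genes Pmaip1 and Bbc3 and the feedback genes Mdm2, Ccng1 and Trp53inp1 were all higher with Dfo, from 2.1-fold to 8.8-fold on the log2(TPM + 1) scale used throughout, while the mRNA of Trp53 itself was not called. In all, limma called 16 of the 32 genes higher and 1 lower at an adjusted p below 0.05, which is 53.1%, against 15.5% of all 16133 genes tested (4.98% higher and 10.5% lower). The median log2 change was 0.59 over the 32 genes and -0.17 over all genes tested. The 3 Dfo libraries lay above all 9 other libraries of the series in 14 of the 32 genes (background 3.48%), and below all 9 in 3, Trp53, Ei24 and Sulf2 (background 14.2%). With median-of-ratios scaling, the calls over all genes went from 803 higher and 1695 lower to 1519 and 1022 and the median of all genes from -0.17 to -0.05, with 19 of the 32 genes higher. Quantile normalization brought that median to -0.03, with 18 of the 32 higher and 8% of all genes called higher.

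**Figure D1:**
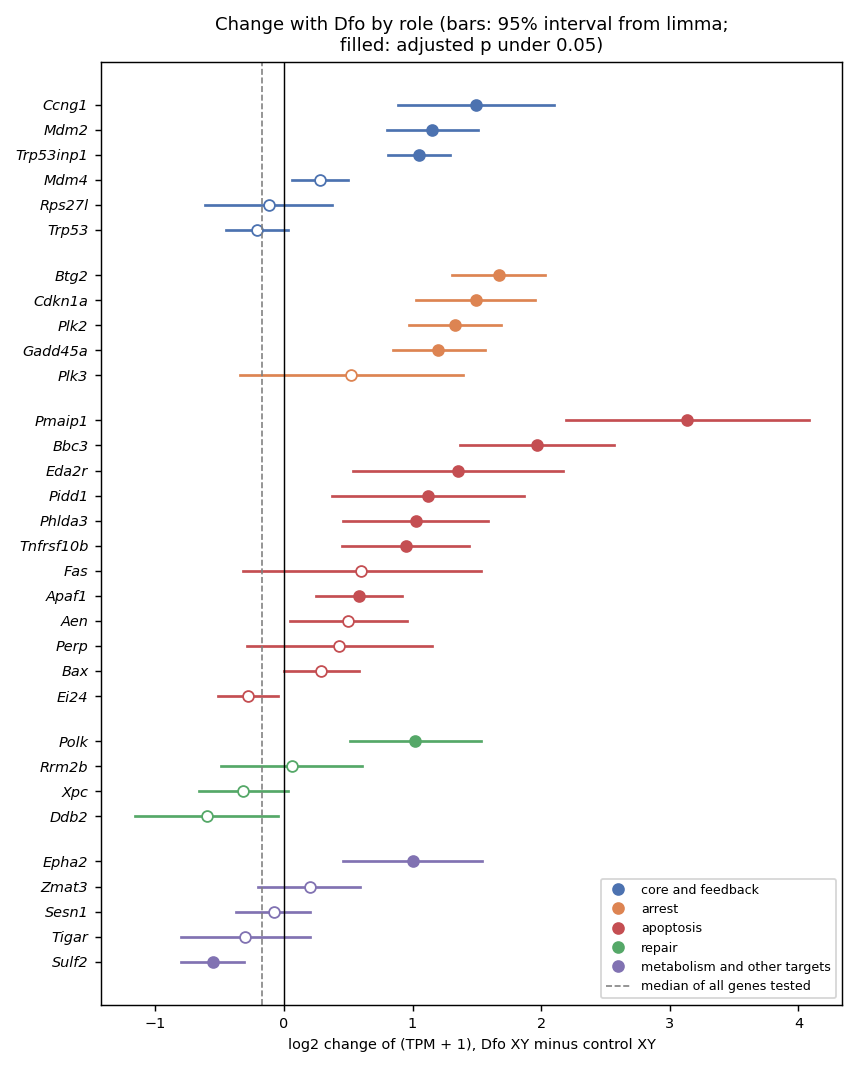
Log2 change of (TPM + 1) in Dfo XY minus control XY for each of the 32 genes, grouped by role, with 95% intervals from limma as bars and filled circles at an adjusted p below 0.05. The arrest genes sit to the right as a group, 4 of 5 of them filled, the apoptosis genes spread from Ei24 at -0.28 to Pmaip1 at 3.13, and the dashed line marks the median of all genes tested at -0.17.

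Core and feedback genes came first in the order of roles, and 3 of 6 were higher with Dfo. Trp53 (chr11:69580359-69591873), the gene of p53 itself, stood at 113.87, 104.14 and 114.53 TPM in the control XY libraries and at 96.23, 98.71 and 91.54 TPM with Dfo. All 3 Dfo libraries were below all 3 controls, but the log2 change of -0.21 ± 0.11 (SE; 95% interval -0.45 to 0.03) did not pass the test (limma adjusted p = 0.228). Mdm2 (chr10:117688875-117710758), the ubiquitin ligase that degrades p53, stood at 40.45, 48.28 and 44.29 TPM in control XY and at 85.24, 86.1 and 134.95 TPM with Dfo. The groups did not overlap, replicate 3 of Dfo was the highest, and the log2 change was 1.15 ± 0.16 (limma adjusted p = 0.000505). Ccng1 (chr11:40748552-40755311), the gene of cyclin G1, which acts with a phosphatase to activate MDM2, went from 34.41, 34.82 and 40.22 TPM to 82.11, 80.86 and 170.46 TPM. Its log2 change was 1.49 ± 0.28 (limma adjusted p = 0.00374), with no overlap and with replicate 3 again the highest. Trp53inp1 (chr4:11156431-11174379), a nuclear protein that promotes phosphorylation of p53, went from 37.57, 34.13 and 33.18 TPM to 67.02, 72.13 and 81.45 TPM. Here the 3 Dfo libraries were close together, all above the controls, and the log2 change was 1.05 ± 0.11 (limma adjusted p = 5.58e-05).

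The other core genes were not called. Mdm4, the partner of MDM2 that holds the p53 activation domain, stood at 39.27, 34.58 and 33.58 TPM in control XY and 43.94, 42.49 and 44.5 TPM with Dfo, without overlap, a log2 change of 0.28 ± 0.10 (limma adjusted p = 0.0823). It was called higher with median-of-ratios scaling (0.43, adjusted p = 0.015), with quantile normalization (0.33, adjusted p = 0.0449) and after removal of the 50 most abundant genes (0.38, adjusted p = 0.0246). Rps27l, a ribosomal protein gene and p53 target, overlapped between groups at 107.55, 88.95 and 89.57 TPM and 68.44, 86.64 and 111.35 TPM, a log2 change of -0.12 ± 0.23 (limma adjusted p = 0.76). Rps27l closely resembles Rps27, so its values are uncertain where reads could be split between them.

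Cell-cycle arrest was the role with the highest share of calls, 4 of 5 genes. Cdkn1a (chr17:29090976-29100727), the gene of p21, which inhibits cyclin-dependent kinases and is the best known p53 target, stood at 23.56, 17.87 and 22.16 TPM in control XY and at 54.32, 47.28 and 87.87 TPM with Dfo. Every Dfo library was above every other library of the series, and the log2 change was 1.49 ± 0.21 (limma adjusted p = 0.000607). Its window printed above held both a pair of adjoining half-sites and a spaced pair. Its other window, before a start site further into the gene (chr17:29093519-29093768), held no half-site. Btg2 (chr1:134075170-134079120), an antiproliferative factor that works with the CCR4-NOT deadenylase, went from 35.59, 33.4 and 28.77 TPM to 101.74, 101.23 and 113.39 TPM. The 3 Dfo libraries were close together and the log2 change was 1.67 ± 0.17 (limma adjusted p = 3.48e-05). Gadd45a (chr6:67035096-67037457), a growth-arrest and DNA-damage gene, went from 24.11, 17.84 and 27.8 TPM to 54.85, 58.74 and 48.64 TPM, and here replicate 3 was the lowest of the Dfo libraries. The groups still did not overlap, with a log2 change of 1.20 ± 0.16 (limma adjusted p = 0.00043). The gene overlaps E230016M11Rik on the opposite strand. The kit marks strand, but the sources used here do not give the counting setting, so reads of the pair may not be told apart. Plk2 (chr13:110395046-110400844), a polo-like kinase of the stress response, went from 65.88, 65.73 and 41.52 TPM to 139.22, 126.83 and 166.69 TPM. Its log2 change was 1.33 ± 0.17 (limma adjusted p = 0.000233), with replicate 3 the lowest control and the highest Dfo library. Plk3, a related kinase that overlaps Tctex1d4 on the opposite strand, was at 4.48, 3.03 and 4.24 TPM in control XY and 6.21, 5.34 and 6.53 TPM with Dfo. These groups did not overlap, but the log2 change of 0.52 ± 0.40 was not called (limma adjusted p = 0.42).

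**Figure D2:**
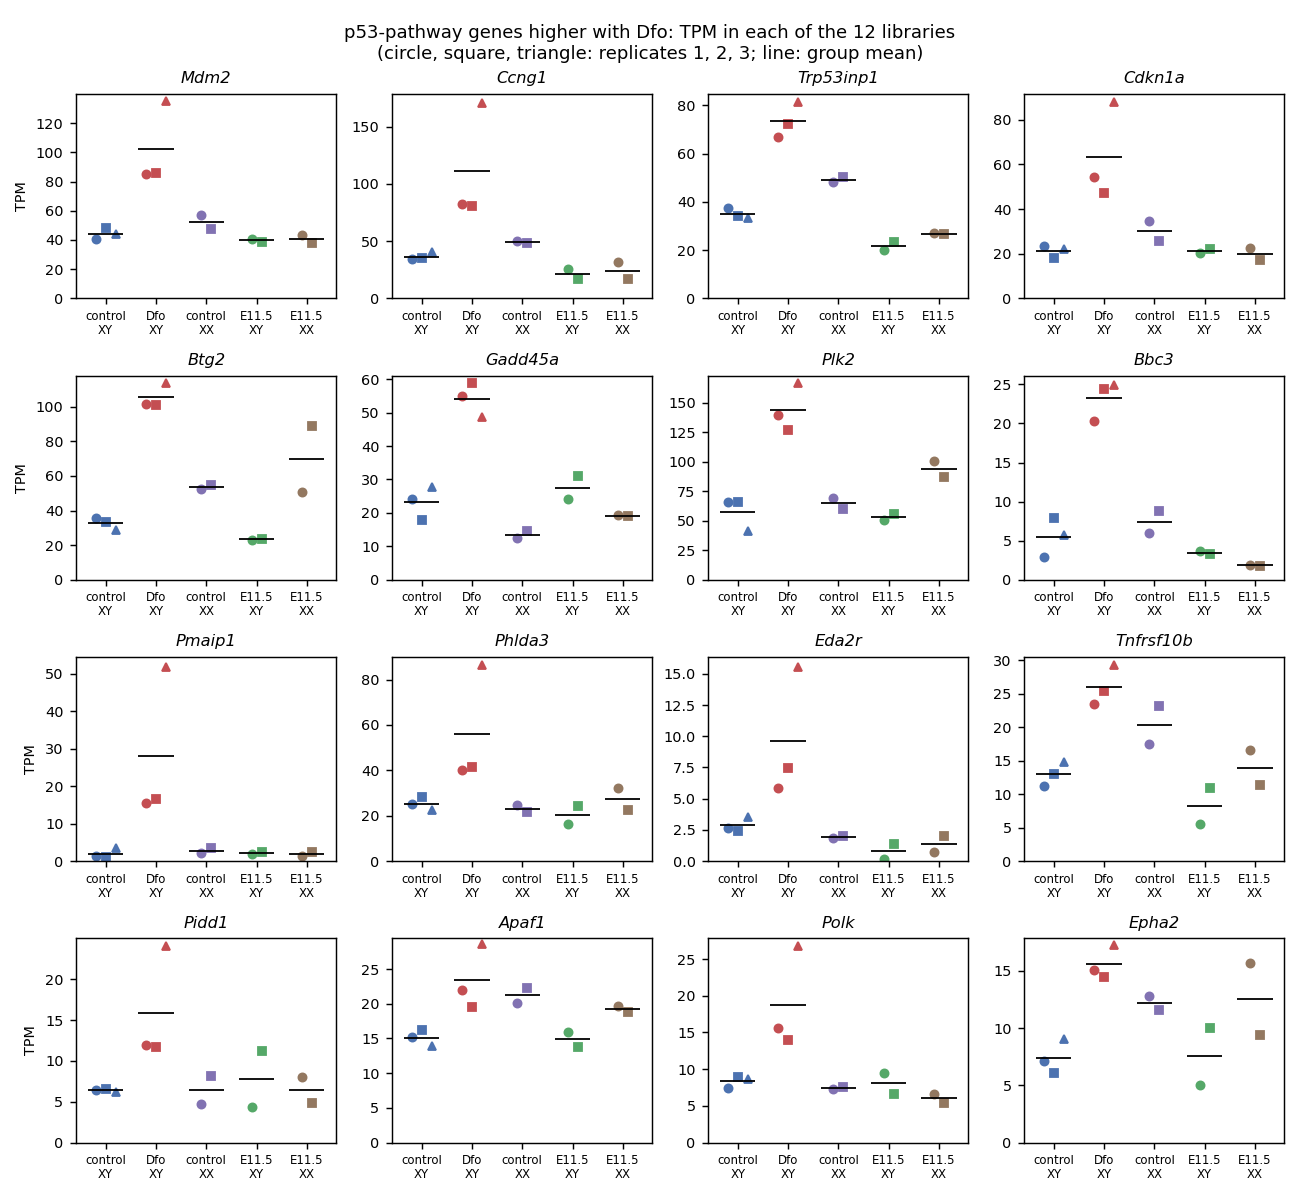
TPM of the 16 genes called higher with Dfo in each of the 12 libraries, 1 panel per gene with its own linear axis from 0, markers for replicates and a line at each group mean. In Mdm2, Ccng1, Cdkn1a, Pmaip1, Phlda3, Eda2r, Pidd1 and Polk the triangle of Dfo XY replicate 3 stands well above the other Dfo libraries, while in Btg2, Bbc3 and Trp53inp1 the 3 Dfo libraries lie together.

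Among the apoptosis genes, 7 of 12 were higher with Dfo and none was lower (limma; at an unadjusted p below 0.05, 9 were higher and 1 lower). The share of all genes at an unadjusted p below 0.05 was not computed. Counts at that threshold, here and below, therefore have no background beside them. Pmaip1 (chr18:66458533-66465565), the gene of NOXA, a BH3-only protein that neutralises MCL1, stood at 1.43, 1.09 and 3.48 TPM in control XY and at 15.42, 16.68 and 51.95 TPM with Dfo. It had the largest change of the 32 genes, 3.13 ± 0.43 on the log2 scale (limma adjusted p = 0.000467), and 2.08 with a pseudocount of 5 TPM in place of 1. Bbc3 (chr7:16308393-16318205), the gene of PUMA, a BH3-only protein that binds all antiapoptotic BCL2 proteins, went from 2.92, 7.9 and 5.73 TPM to 20.3, 24.41 and 24.95 TPM. The 3 Dfo libraries lay together, and the log2 change was 1.97 ± 0.28 (limma adjusted p = 0.000512). Eda2r (chrX:97333840-97377216), a receptor of ectodysplasin A2 in the TNF receptor family, went from 2.67, 2.45 and 3.56 TPM to 5.87, 7.48 and 15.57 TPM. Its log2 change was 1.35 ± 0.37 (limma adjusted p = 0.0288), with no overlap. Tnfrsf10b (chr14:69767472-69784411), the mouse TRAIL death receptor, went from 11.25, 13.03 and 14.81 TPM to 23.41, 25.43 and 29.28 TPM. Its log2 change was 0.95 ± 0.23 (limma adjusted p = 0.015), and control XX replicate 2, at 23.17 TPM, nearly reached the lowest Dfo library.

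Phlda3, Pidd1 and Apaf1 complete the apoptosis genes called higher. Phlda3 (chr1:135766119-135769136), a pleckstrin-homology protein that restrains AKT, went from 25.12, 28.45 and 22.55 TPM to 40.19, 41.49 and 86.42 TPM, a log2 change of 1.03 ± 0.26 (limma adjusted p = 0.0193). Pidd1 (chr7:141438113-141444025), the death-domain protein that assembles the caspase-2 platform, went from 6.4, 6.52 and 6.2 TPM to 11.96, 11.72 and 24.01 TPM, a log2 change of 1.12 ± 0.34 (limma adjusted p = 0.0449). Apaf1 (chr10:90989311-91082770), the scaffold of the apoptosome, went from 15.27, 16.23 and 13.92 TPM to 21.94, 19.54 and 28.67 TPM, a log2 change of 0.58 ± 0.15 (limma adjusted p = 0.0242). In each of these genes all Dfo libraries were above all control XY libraries, and in Phlda3 and Pidd1 replicate 3 of Dfo was well above the others.

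The other 5 apoptosis genes were not called. Bax (chr7:45461697-45466898), the pore-forming effector of mitochondrial death, was at 64.79, 59.74 and 57.32 TPM in control XY and 62.36, 73.66 and 88.99 TPM with Dfo, overlapping in replicate 1, with a log2 change of 0.29 ± 0.13 (limma adjusted p = 0.167, and 0.0362 with median-of-ratios scaling). Aen, a nuclease that takes part in apoptosis, was at 21.35, 21.02 and 27.31 TPM and 25.95, 27.66 and 50.54 TPM, a log2 change of 0.50 ± 0.21 (limma adjusted p = 0.129). It was called with median-of-ratios scaling (0.65, adjusted p = 0.0326), with quantile normalization (0.61, adjusted p = 0.0474) and without Dfo replicates 1 and 2 (1.1, adjusted p = 0.00881). Perp, a desmosomal membrane protein, was at 1.22, 1.34 and 1.87 TPM and 1.57, 2.74 and 2.79 TPM, a log2 change of 0.43 ± 0.33 (limma adjusted p = 0.428). Fas, the FAS ligand receptor, was at 0.49, 0.32 and 2 TPM and 0.97, 1 and 4.24 TPM, with the highest value of each group in replicate 3, and is listed at 0 in the 6 libraries of control XX and E11.5 (log2 change with Dfo 0.60 ± 0.43, limma adjusted p = 0.384). Ei24, an endoplasmic reticulum protein, was lower in all Dfo libraries, at 46.21, 54.27 and 61.67 TPM against 64.3, 63.5 and 68.04 TPM, a log2 change of -0.28 ± 0.11 (limma adjusted p = 0.1), and it was called without Dfo replicate 3 (-0.38, adjusted p = 0.0287).

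Among the 4 repair genes, only Polk was called. Polk (chr13:96480690-96542579), the translesion polymerase kappa, went from 7.48, 9 and 8.66 TPM to 15.6, 13.98 and 26.75 TPM, a log2 change of 1.02 ± 0.23 (limma adjusted p = 0.0115), with no overlap with any other library. Rrm2b, the p53-inducible subunit of ribonucleotide reductase, overlapped at 5.6, 3.87 and 3.64 TPM and 4.63, 3.77 and 5.27 TPM, and its log2 change of 0.06 ± 0.25 had a 95% interval of -0.49 to 0.61 (limma adjusted p = 0.904). Ddb2 and Xpc, which recognise ultraviolet damage for nucleotide excision repair, had negative values that were not called, -0.60 ± 0.26 (limma adjusted p = 0.137) and -0.32 ± 0.16 (adjusted p = 0.208). Ddb2 was at 7.87, 4.45 and 9.84 TPM in control XY and 3.71, 5.18 and 4.15 TPM with Dfo, and Xpc at 24.57, 28.76 and 33.92 TPM and 19.99, 20.57 and 29.28 TPM, both overlapping. They were called lower when 1 library was left out, Ddb2 without control XY replicate 2 (-0.88, adjusted p = 0.0388) and Xpc without Dfo replicate 3 (-0.49, adjusted p = 0.0455). Ddb2 overlaps Acp2 on the opposite strand.

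In the role of metabolism and other functions, 1 gene of 5 was higher and 1 was lower. Epha2 (chr4:141301240-141329384), an ephrin receptor, went from 7.09, 6.06 and 9.01 TPM to 15.11, 14.48 and 17.22 TPM, a log2 change of 1.0 ± 0.25 (limma adjusted p = 0.0177). The cultured XY groups did not overlap, but E11.5 XX replicate 1, at 15.72 TPM, lay within the range of the Dfo libraries. Sulf2 (chr2:166073089-166155663), an extracellular sulfatase that edits heparan sulfate, fell from 112.54, 103.58 and 97.28 TPM to 68.13, 62.98 and 82.4 TPM, a log2 change of -0.55 ± 0.11 (limma adjusted p = 0.00651). Its 3 Dfo libraries were below all 9 others, and it overlaps Ncoa3 on the opposite strand. Sesn1, a sestrin that restrains TORC1, overlapped at 20.51, 23.48 and 27.68 TPM and 21.88, 21.23 and 24.04 TPM, a log2 change of -0.08 ± 0.13 (limma adjusted p = 0.722). Tigar, a regulator of glycolysis, was at 5.05, 4.25 and 3.28 TPM and 3.46, 2.54 and 3.59 TPM, a log2 change of -0.30 ± 0.23 (limma adjusted p = 0.42). Zmat3, an RNA-binding zinc finger protein, was at 9.65, 9.64 and 11.88 TPM and 11.71, 10.96 and 13.48 TPM, a log2 change of 0.20 ± 0.18 (limma adjusted p = 0.515).

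Of the 17 calls, 9 held under every one of 23 alternatives (Mdm2, Ccng1, Trp53inp1, Cdkn1a, Btg2, Gadd45a, Plk2, Bbc3 and Pmaip1) and 8 were lost under at least 1. With replicates 1 and 2 averaged in both cultured XY groups, 10 genes were higher and 0 lower (limma). Calls lost in that setting were Eda2r (limma adjusted p = 0.113), Tnfrsf10b (0.105), Pidd1 (0.132), Apaf1 (0.0847), Polk (0.0538), Epha2 (0.13) and Sulf2 (0.0937). Over all genes, that setting called 2.01% higher, against 4.98% in the main fit. Leaving out Dfo replicates 1 and 2, which hold Xist, left 1 Dfo library assumed to vary like the other groups. In that fit the log2 change of Sulf2 was -0.34, and Sulf2 was no longer called. The count of higher genes was 9 without control XY replicate 1, against 16, and the share of all genes called higher was 3.23%, against 4.98%. Phlda3 was lost without control XY replicate 1 (limma adjusted p = 0.0581) or 3 (0.0684), and with the replicate number as a block (0.0509), and its log2 change was 0.67 without Dfo replicate 3 and 1.73 without Dfo replicates 1 and 2. Apaf1 was lost without control XY replicate 1 (0.0692), 2 (0.0509) or 3 (0.0763), without Dfo replicate 1 (0.0565) or 3 (0.0763), and with the block (0.0547), and its change was 0.88 without Dfo replicates 1 and 2. Eda2r was lost without control XY replicate 1 (0.0852) or 2 (0.0938) and without Dfo replicate 2 (0.0597) or 3 (0.0976), with a pseudocount of 0.1 TPM (0.099) and with no filter (0.0525), and its change was 0.84 with a pseudocount of 5 and 2.1 without Dfo replicates 1 and 2. Pidd1 was lost without any 1 of the 6 cultured XY libraries, in the order of control then Dfo replicates at adjusted p-values of 0.107, 0.103, 0.108, 0.0623, 0.0617 and 0.149, and without E11.5 XX replicate 1 (0.0502). It was also lost with a pseudocount of 0.1 TPM (0.052) and with no filter (0.0765). Its change was 1.76 without Dfo replicates 1 and 2 (0.0528). Tnfrsf10b was lost without control XY replicate 1 (0.0636) and without Dfo replicates 1 and 2 (0.104). Epha2 was lost without control XY replicate 1 (0.0586) or 2 (0.0734), without Dfo replicate 3 (0.0536) and without Dfo replicates 1 and 2 (0.134). Polk was lost without control XY replicate 1 (0.0505), and its change was 1.57 without Dfo replicates 1 and 2.

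The 3 Dfo libraries did not hold the targets at the same level. In replicate 3, 10 of the 32 genes stood at 1.5 times or more the mean of replicates 1 and 2 (31.2%, against 16.6% of the 15333 genes for which this could be computed). These were Mdm2 (1.58 times), Ccng1 (2.09), Cdkn1a (1.73), Pmaip1 (3.24), Phlda3 (2.12), Aen (1.89), Eda2r (2.33), Fas (4.3), Pidd1 (2.03) and Polk (1.81). Other genes that rose with Dfo had ratios near 1, such as Btg2 (1.12), Bbc3 (1.12), Trp53inp1 (1.17) and Tnfrsf10b (1.2), and Gadd45a was below 1 (0.856). Relative to the control XY mean, Pmaip1 was 8.03-fold higher in the mean of Dfo replicates 1 and 2 and 26.0-fold higher in replicate 3. Ccng1 was 2.23-fold and 4.67-fold higher in the same libraries, Cdkn1a 2.4-fold and 4.15-fold, and Mdm2 1.93-fold and 3.04-fold. In control XY, replicate 3 reached 1.5 times the mean of the others in 3 of the 32 genes, Pmaip1, Fas and Ddb2 (background 16.8%). With 1 library these ratios carry no test. The summed TPM of macrophage markers was 109.7, 81.4 and 122.3 in the Dfo libraries in order and that of erythroid markers 3091.3, 2259.3 and 1314.5, against 100.6, 81.3 and 54.4 (macrophage) and 2104.1, 2442 and 302.2 (erythroid) in control XY, and Xist was 13.57, 24.56 and 0.28 TPM with Dfo. The part of these in the ratios was not tested.

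**Figure D3:**
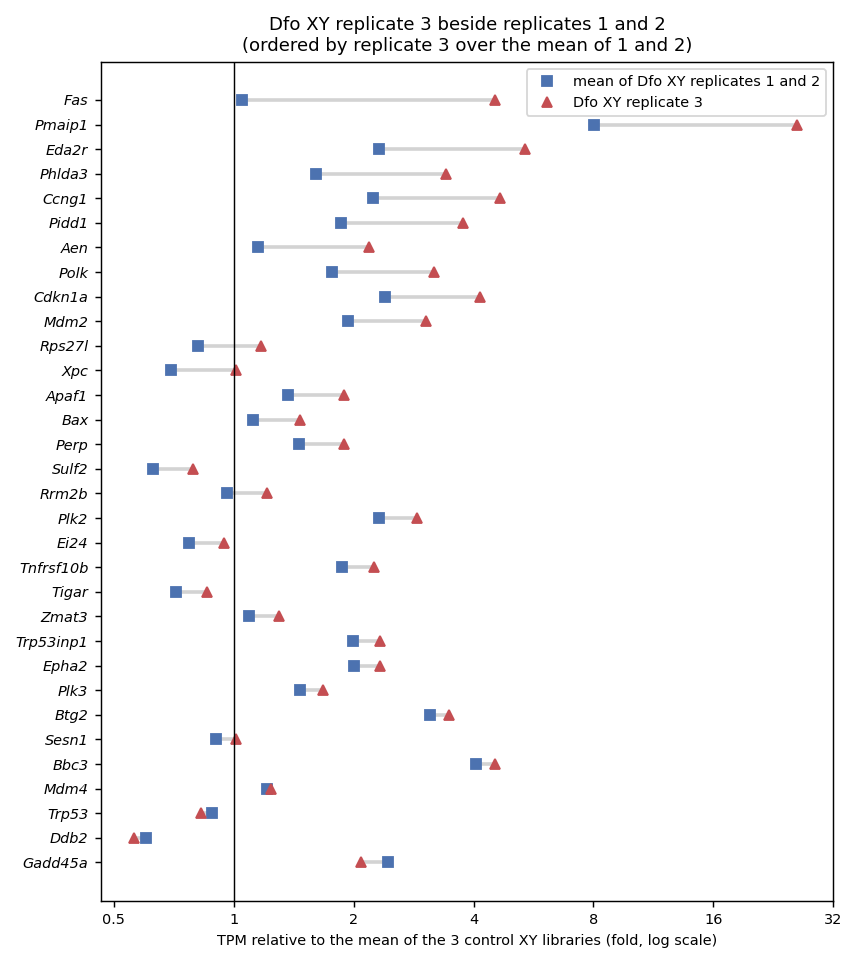
TPM of each of the 32 genes relative to the mean of the 3 control XY libraries, on a log axis, for the mean of Dfo XY replicates 1 and 2 (squares) and for replicate 3 (triangles), ordered by the ratio of replicate 3 to that mean. Fas, Pmaip1, Eda2r, Phlda3, Ccng1, Pidd1, Aen, Polk, Cdkn1a and Mdm2 head the plot with replicate 3 at 1.5 times or more the others, and Gadd45a closes it at 0.856.

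Further genes of the p53 network were taken from 4 lists. Of 26 regulators of p53 that passed the filter (kinases, cofactors, ligases and modifiers), limma called 2 higher and 2 lower, which is 15.4%, near the 15.5% of all genes tested, with a median log2 change of 0.01. Ppp1r13l, the gene of iASPP, an inhibitor of p53, was higher (25.75 ± 2.9 against 10.3 ± 1.45 TPM, SD, n = 3 each, log2 change 1.25 ± 0.17, limma adjusted p = 0.000439). Crebbp, an acetyltransferase and coactivator, was called higher (0.28 ± 0.08, adjusted p = 0.0322), and Trp53bp1 (-0.41 ± 0.11, adjusted p = 0.0303) and Trim24 (-0.29 ± 0.09, adjusted p = 0.0472) lower. Of these only Ppp1r13l kept its call under all alternatives. The median-of-ratios change was 0.43 for Crebbp, -0.26 for Trp53bp1 (adjusted p = 0.0914) and -0.15 for Trim24 (adjusted p = 0.247). Without Dfo replicates 1 and 2, none of these 3 was called (adjusted p = 0.32 for Crebbp, 0.59 for Trp53bp1, with a change of -0.16, and 0.415 for Trim24). Crebbp was lost without any 1 of control XY replicates 1 to 3 or Dfo replicates 1 and 2 (highest adjusted p = 0.138), Trp53bp1 without any of the same 5 (highest 0.13), and Trim24 without any of 9 libraries, those 5 and each XX library (highest 0.174).

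Of 33 other p53 targets tested, 5 were higher and 4 lower (27.3%, against 15.5% of all genes, 4.98% higher and 10.5% lower), with a median of -0.04. Sesn2, a sestrin induced by several stresses, was at 65.0 ± 2.63 TPM with Dfo and 18.39 ± 2 TPM in control XY (SD, n = 3 each; log2 change 1.77 ± 0.15, limma adjusted p = 9.96e-06). Ddit4, an inhibitor of TORC1 that is also a hypoxia-inducible gene, was at 114.8 ± 16.8 against 23.03 ± 5.23 TPM (2.28 ± 0.22, adjusted p = 3.36e-05). Slc19a2, a thiamine transporter, was higher by 1.48 ± 0.17 (adjusted p = 0.000116), and Ppm1d, the phosphatase WIP1 that shuts the response down, by 0.74 ± 0.12 (adjusted p = 0.0019). Lower were Pank1 (-0.82 ± 0.12, adjusted p = 0.000726), a pantothenate kinase, Fdxr (-1.01 ± 0.21, adjusted p = 0.00627), the ferredoxin reductase that works with iron-sulfur proteins, Kitl (-0.51 ± 0.1, adjusted p = 0.00683), the ligand of KIT, and Trp53i11 (-0.50 ± 0.14, adjusted p = 0.0284). Kitl was lost without Dfo replicates 1 and 2 (0.0735), and Trp53i11 without control XY replicate 1 (0.102) or 2 (0.112) or Dfo replicate 2 (0.11) or 3 (0.0676). Trp53i11 was also lost with median-of-ratios scaling (0.113), with quantile normalization (0.0801), after removal of the 50 most abundant genes (0.0731), with replicates averaged (0.176) and without Dfo replicates 1 and 2 (0.146). The others named kept their calls under all alternatives.

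Of 18 cell-cycle genes that p21 lowers through the DREAM complex, 7 were lower and 0 higher (limma; at an unadjusted p below 0.05, 10 lower and 1 higher), with a median of -0.46. Over all genes tested, 10.5% were called lower. In cultured control XY against E11.5 XY, 5 of the list were lower and 0 higher, with a median of -0.62 (3.04% of all genes lower). Cdkn1a was not called there (log2 change 0 ± 0.24, limma adjusted p = 0.998). In cultured control XX against E11.5 XX, 1 was lower and 0 higher, with a median of -0.48 (1.71% of all genes lower). The part of p21 in the lower values with Dfo was not tested. Ccnb2, a mitotic cyclin, fell from 55.12 ± 2.1 TPM in control XY to 17.92 ± 3.53 TPM with Dfo (SD, n = 3 each; log2 change -1.59 ± 0.20, limma adjusted p = 0.000248). Plk1, a mitotic kinase, fell by 0.83 ± 0.12 on the log2 scale (adjusted p = 0.000764), Ccnb1 by 0.78 ± 0.15 (adjusted p = 0.00481) and Ccna2 by 0.52 ± 0.11 (adjusted p = 0.00894). With replicates 1 and 2 averaged in both cultured XY groups, Ccnb1 (limma adjusted p = 0.0542) and Ccna2 (0.0634) were no longer called. The same held without Dfo replicates 1 and 2, which leaves 1 Dfo library, with changes of -0.42 for Ccnb1 and -0.35 for Ccna2. Of 19 BCL2-family and caspase genes outside the 32, 2 were lower and 0 higher (limma; at an unadjusted p below 0.05, 5 lower and 2 higher). This is 10.5% of the list, against 15.5% of all genes called and 10.5% called lower, so it is near the background, and the median was -0.17, the same as over all genes. These were the proapoptotic Bad (-0.67 ± 0.17, adjusted p = 0.0196) and Bak1 (-0.41 ± 0.11, adjusted p = 0.0305), and neither kept its call in all leave-one-out fits. Bad was lost without control XY replicate 2 (0.082) or 3 (0.06) or Dfo replicate 1 (0.0686) or 2 (0.0679), and Bak1 without any 1 of the 6 cultured XY libraries (0.0606 to 0.0918). Neither was called without Dfo replicates 1 and 2 (0.297 for Bad and 0.114 for Bak1), and Bak1 was also lost with median-of-ratios scaling (-0.26, adjusted p = 0.129), with quantile normalization (0.0641) and after removal of the 50 most abundant genes (0.0661).

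**Figure D4:**
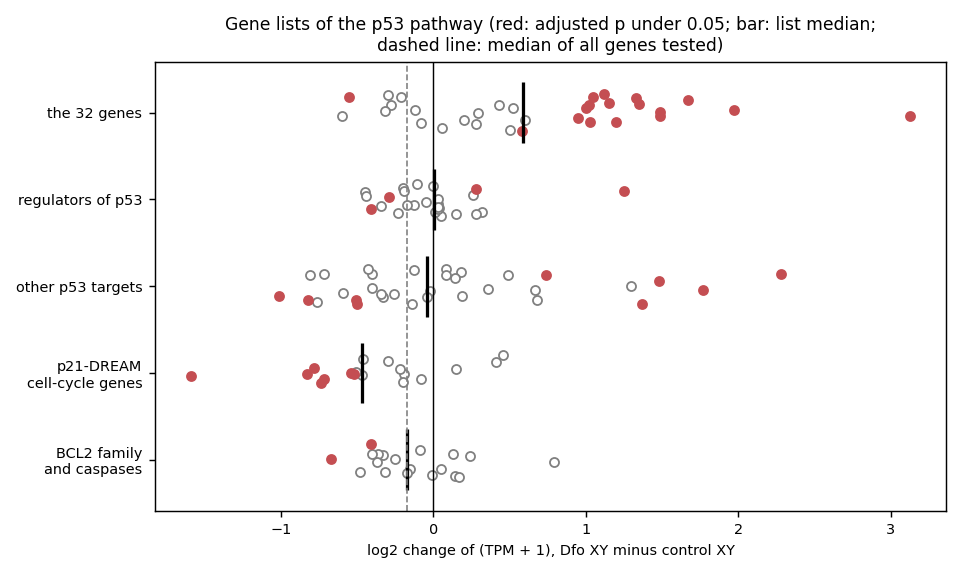
Log2 change of (TPM + 1) in Dfo XY minus control XY for the 32 genes and 4 further lists of the p53 network, 1 circle per gene, red at an adjusted p below 0.05, with a bar at each list's median and a dashed line at the median of all genes tested. The 32 genes have their median at 0.59, the p21-DREAM list at -0.46 and the BCL2 and caspase list at -0.17, on the dashed line.

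Marker genes of the cells moved with Dfo as well. Of the 9 gonadal somatic markers, limma called 5 lower with Dfo and none higher, against 10.5% of all genes lower. At an unadjusted p below 0.05, 7 were lower and 0 higher. The summed mesenchyme markers were 812.3 to 869.2 TPM in control XY and 539.3 to 603.8 TPM with Dfo. Summed mesonephric epithelium markers were 135.5 to 155.6 and 66.6 to 116.5 TPM, and summed germ cell markers 33.3 to 38 and 20.3 to 28 TPM. Of the 8 erythroid and the 8 macrophage markers, 0 were called, with median log2 changes of 0.76 and 0.29. Of the 9 endothelial markers, 1 was called lower. Of the 8 neural crest and neuron markers, 1 was called higher and 2 lower. The part of these markers in the changes of the 32 genes was not tested.

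The second comparison, control XY against control XX in culture, asks how the sexes differ at the end of the culture without Dfo. Limma called 2 of the 32 genes higher in XY and 5 lower, against 25.2% of all genes called (2.97% higher and 22.2% lower), so the share of the 32 genes, 21.9%, was near the background. Gadd45a was at 24.11, 17.84 and 27.8 TPM in XY and 12.56 and 14.51 TPM in XX, a log2 change of 0.72 ± 0.18 (limma adjusted p = 0.0142), and Rps27l at 107.55, 88.95 and 89.57 TPM and 68.52 and 37.7 TPM, a log2 change of 0.89 ± 0.25 (adjusted p = 0.0227). Lower in XY were Btg2 (-0.71 ± 0.18, adjusted p = 0.0159), Trp53inp1 (-0.48 ± 0.12, adjusted p = 0.0147), Ei24 (-0.55 ± 0.12, adjusted p = 0.00656), Sesn1 (-0.49 ± 0.15, adjusted p = 0.0276) and Tigar (-0.76 ± 0.26, adjusted p = 0.0467). All 7 genes were without overlap between the 3 XY and the 2 XX libraries. So were genes that were not called, among them Trp53, Cdkn1a and Bax, and the share over all genes was not computed. All 5 lower calls were lost with median-of-ratios scaling, with quantile normalization and after removal of the 50 most abundant genes, the first of which changed the calls over all genes from 479 higher and 3585 lower to 528 and 499 and their median from -0.22 to 0.07. The Rpph1 share was 15.29% to 20.32% in XY and 6.96% to 7.2% in XX, and summed gonadal somatic markers were 894.8 to 1072.4 and 1614.4 to 1658.4 TPM; their part was not tested.

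Each of these 7 calls also depended on single libraries. The Rps27l change was 0.47 without control XX replicate 2 (adjusted p = 0.249), and its call was lost without control XY replicate 1 (0.077). Gadd45a was lost without control XY replicate 1 (0.0512) or control XX replicate 1 (0.1). Trp53inp1 was lost without control XY replicate 2 (0.0523) or control XX replicate 1 (0.0602) or 2 (0.0823), Btg2 without control XX replicate 1 (0.069) or 2 (0.0826), and Ei24 without control XX replicate 2 (0.0512). Sesn1 was lost without control XY replicate 1 (0.109) or 2 (0.0789) or control XX replicate 1 (0.0984) or 2 (0.116). Tigar was lost without any of 7 libraries, the 3 control XY, Dfo replicates 1 and 2 and both control XX (highest adjusted p = 0.196).

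At E11.5, XY against XX, limma called 0 of the 32 genes higher and 2 lower in XY, against 1.09% higher and 1.2% lower over all genes, 2.29% together, and at an unadjusted p below 0.05 there were 2 higher and 7 lower. Btg2 was at 23.2 and 23.33 TPM in XY and 50.89 and 89.07 TPM in XX, a log2 change of -1.49 ± 0.20 (adjusted p = 0.00354), and this call held without any 1 library. Sesn1 was at 19.39 and 22.77 TPM in XY and 33.05 and 35.33 TPM in XX (-0.68 ± 0.16, adjusted p = 0.0499), and this call was lost without any 1 of 10 libraries, all but the third replicates (highest adjusted p = 0.173). Both genes were lower in XY than in XX in culture too, with the limits given above. The difference of the sex differences, culture minus E11.5, was called for 0 of the 32 genes (limma; background 0.192% higher and 1.14% lower, 1.33% together), and at an unadjusted p below 0.05 there were 3 higher and 5 lower. For Btg2 it was 0.79 ± 0.27 (adjusted p = 0.136).

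The last comparisons set the cultured controls against E11.5 gonads of the same sex. Whether these groups differ in culture is not settled by the labels. Trp53inp1 was higher in culture in both sexes. In XY it was at 37.57, 34.13 and 33.18 TPM in culture and 19.97 and 23.3 TPM at E11.5 (0.67 ± 0.12, limma adjusted p = 0.00918), and it was the only one of the 32 genes called (1 higher and 0 lower, against 2.62% higher and 3.04% lower over all genes, 5.66% together; at an unadjusted p below 0.05, 7 higher and 0 lower). The call was lost without control XY replicate 1 (0.0512) or E11.5 XY replicate 1 (0.0852). With median-of-ratios scaling, the calls over all genes in this comparison went from 422 higher and 491 lower to 616 and 423.

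In XX, limma called 4 of the 32 genes higher in culture and 0 lower (background 7.36% higher and 1.71% lower, 9.07% together; at an unadjusted p below 0.05, 10 higher and 3 lower). Trp53inp1 was at 48.06 and 50.13 TPM in culture and 26.92 and 26.49 TPM at E11.5 (0.85 ± 0.13, limma adjusted p = 0.00262), and no single library ended this call. Zmat3 was at 16 and 12.73 TPM and 7.23 and 5.15 TPM (1.10 ± 0.22, adjusted p = 0.00976), lost without control XX replicate 1 (0.075) or E11.5 XX replicate 2 (0.0874). Bbc3 was at 6 and 8.84 TPM and 1.94 and 1.81 TPM (1.53 ± 0.34, adjusted p = 0.0156), lost without control XX replicate 2 (0.0924) or E11.5 XX replicate 2 (0.0931), and its change was 0.84 with a pseudocount of 5. Bax was at 68.45 and 72.85 TPM and 46.42 and 44.01 TPM (0.63 ± 0.16, adjusted p = 0.0303), lost without any 1 of the 4 XX libraries (0.0963 and 0.125 without control XX replicates 1 and 2, 0.0675 and 0.161 without the E11.5 ones) and with median-of-ratios scaling (0.125) or quantile normalization (0.185). Over all genes, median-of-ratios scaling changed the calls from 1187 higher and 276 lower to 474 and 378. The comparison of control XY with control XX and that of each cultured control with E11.5 share libraries, so their values are side by side and not independent.

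**Figure D5:**
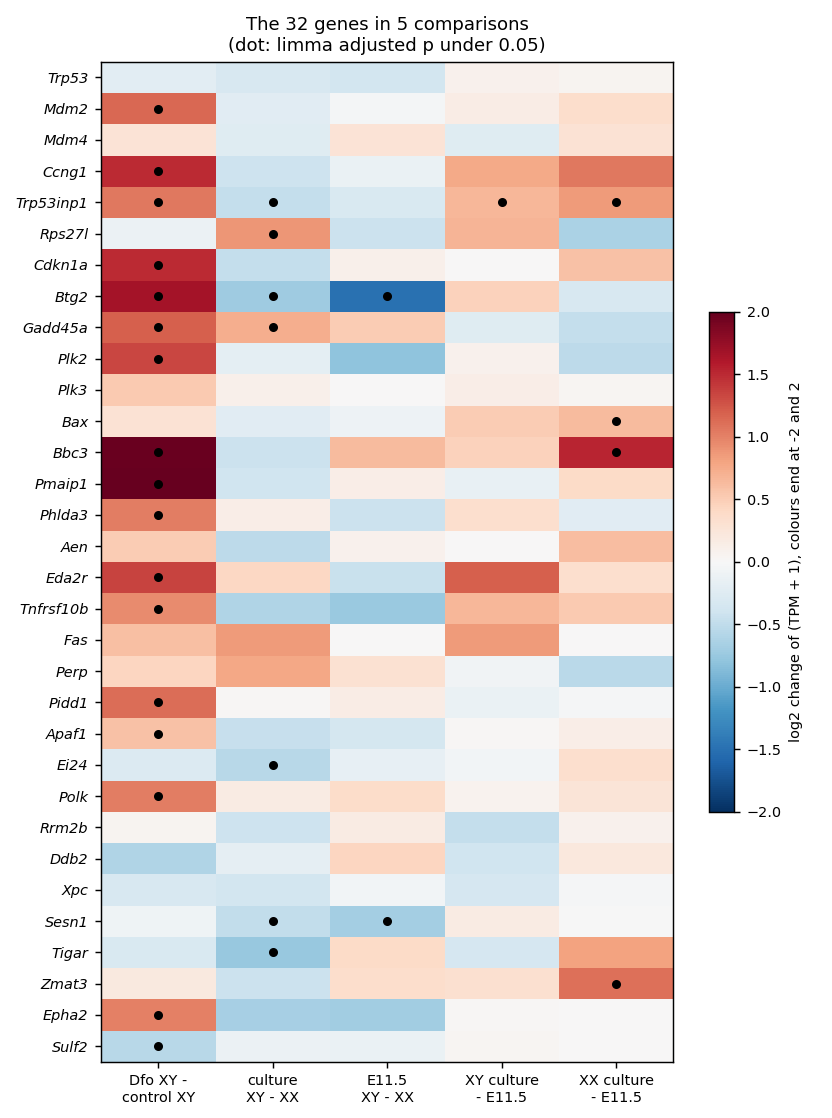
Log2 change of (TPM + 1) for the 32 genes in 5 comparisons, in the order of roles, with red for higher in the first group named, blue for lower, colours ending at -2 and 2, and a dot at a limma adjusted p below 0.05. The Dfo column holds 17 dots, and the others hold 7, 2, 1 and 4.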

How the data were processed

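The 12 RNA-seq libraries, in 5 groups, were of NR5A1(+) cells from cultured and E11.5 mouse gonads. The deposited values are TPM per gene symbol, made by the authors with STAR 2.7.10b, RSEM, R 4.1.2 and mm10, per the submitters' processing notes. The sources used here do not give the version of RSEM, the annotation, the counting strand or any filter. TPM keeps no depth, so no counting precision was computed.

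From these values, log2(TPM + 1) was tested with limma 3.58.1 in R 4.3.3 with a variance trend and 1 coefficient per group over all 12 libraries. The filter kept 16133 genes that reached a TPM of 1 in 2 or more libraries. Adjustment was by Benjamini-Hochberg over all 16133 genes of a contrast, with a threshold of 0.05. The scripts were tested on simulated data. The alternatives were other pseudocounts, filters and scalings, fits on only the groups compared, a replicate block, replicates 1 and 2 averaged, the Dfo libraries with Xist left out, and each library left out in turn. Every gene of the 32 was accounted for. From each further pathway list, up to 4 called genes in each direction by smallest adjusted p were named for Dfo against control. The genes, lists and tests were chosen with earlier results of these data known.

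Gene positions on mm10 come from GENCODE M21, and promoter windows from RefSeq on GRCm38.p6. The main fit did not pair libraries, so its p-values take no account of any pairing. The replicate number entered only as the block of 1 alternative. In the cultured XY groups, deviations from the group means of same-numbered libraries correlated at 0.21, 0.12 and 0.34 over 16133 genes, each above 0.1. Libraries numbered 1 and 2 correlated across numbers as well (0.18 and 0.14), so the values set replicate 3 apart and do not tell 1 from 2. The number comes from the labels, which do not say what it marks.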

Additional observations from a re-analysis of the deposited data

Results flagged for a closer look

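The sex difference of Crebbp, a coactivator of p53, in culture minus that at E11.5 was -0.7 on the log2 scale (SE 0.13, limma adjusted p = 0.0326), which is a difference between the effects of sex in 2 settings. The call was kept under 7 of 21 alternatives. It was lost with median-of-ratios scaling (-0.41, limma adjusted p = 0.212), with quantile normalization and under other processing settings. It was also lost without any 1 of 9 libraries, all but control XY replicate 3, Dfo XY replicate 3 and E11.5 XX replicate 1 (highest adjusted p = 0.104).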

How the results depend on the processing

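Depth is unknown for TPM, and groups of 2 or 3 libraries limit every test. With Dfo, the count of higher genes was 16, 10 with replicates 1 and 2 averaged, and 9 to 16 with 1 library left out. That of lower genes was 1, 0 with replicates averaged, and 1 to 3 with 1 library left out. With the replicate block, 14 genes were higher and 1 lower with Dfo. Over all genes, 4.98% were called higher in the main fit, 2.01% with replicates averaged and 7.26% with the block.

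For control XY against XX in culture, the 2 higher calls became 0 with only the groups compared, 0 with the replicate block, 1 with replicates averaged and 0 to 2 with 1 library left out. The 5 lower calls became 0 with median-of-ratios scaling, quantile normalization, the 50 most abundant genes left out or the replicate block, 1 with replicates averaged and 0 to 7 with 1 library left out. For XY against XX at E11.5, the 2 lower calls became 1 with a pseudocount of 0.1, a filter of TPM at least 5, quantile normalization or replicates averaged, 0 with only the groups compared or the replicate block, and 1 to 3 with 1 library left out. For culture against E11.5 in XY, the 1 higher call became 2 with median-of-ratios scaling, 3 with quantile normalization, 2 with the 50 most abundant genes left out, 0 with only the groups compared, the replicate block or replicates averaged, and 0 to 2 with 1 library left out. In XX, the 4 higher calls became 2 with quantile normalization, and 0 with only the groups compared or the replicate block. With 1 library left out they became 1 to 6, and the 0 lower calls 0 to 1. Over all 16133 genes, the fits on only the groups compared and with the replicate block also called 0 in XX. The same held for XY against XX at E11.5, and for the replicate block in control XY against control XX. For culture against E11.5 in XY, these fits called 1.3% and 0.831% of all genes, against 5.66% in the main fit. The 0 higher calls in the difference of the sex differences became 0 to 1 with 1 library left out. The cause of these shifts was not tested, except that fits on fewer groups have fewer libraries.

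Signs turned only in genes that were not called. With Dfo, Rps27l went from -0.12 to 0.03 with median-of-ratios scaling and 0.23 without both Dfo libraries that hold Xist, and ranged from -0.3 to 0.05 with 1 library left out. Xpc went from -0.32 to 0.02 without those libraries. Sesn1 went from -0.08 to 0.06 with median-of-ratios scaling, 0.04 with quantile normalization, 0.01 with the 50 most abundant genes left out and 0.02 without those libraries, and ranged from -0.18 to 0.03. Rrm2b ranged from -0.04 to 0.22 with 1 library left out, around 0.06.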
